A study of Mus musculus with 12 samples.

Results

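The genes described here encode ribosome biogenesis and nucleolar factors, the proteins that transcribe, cut, modify and fold ribosomal RNA and join it to ribosomal proteins. They were chosen by symbol from a list of 46 genes. Of these, 45 are among the 12516 genes of the deposited table, and Noc2l was not analysed here. The rule used no threshold on expression, but the list was drawn up with earlier results of the same comparison known. Counts and adjusted p values of the listed genes are therefore a description of them and support nothing further.

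RNA was sequenced from Oct4+ sorted female germ cells of the mouse, taken at embryonic day 13.5. The 12 samples, called embryos here although the labels do not state that each is a single animal, shared the Gulo-/- genotype and a C57BL/6 background. Without Gulo, the enzyme that completes vitamin C production, the colony depended on its diet. For 6 withdrawn embryos vitamin C was removed from the diet for the opening weeks of gestation, and for 6 supplied embryos it was given at physiological levels. The comparison addresses how the mother's vitamin C affects transcription in the embryonic germline. The values are the authors' normalized log2 expression, and the sequencing depth behind them is unknown. Titles carry a number from 1 to 4 in each diet, and numbers 1 and 4 hold 2 embryos of each diet. Whether embryos that share a number are siblings is not given, and if they share a mother the p values are too small.

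The germ cell genes Ddx4, Dazl, Pou5f1 and Dppa3 were expressed in both diets, at mean log2 values from 11.97 to 13.20. Over all 9 germ cell genes listed, means over the 12 embryos ran from 5.69 for Nanos3 to 12.98. Markers of somatic cells had means over the 12 embryos from 3.46 to 7.41, a range that takes in Nanos3. Pou5f1, which encodes the Oct4 protein used for the sort, was itself higher in withdrawn embryos (0.45, adjusted p = 0.00505 by limma), as was Dppa3 (0.23, adjusted p = 0.0205). Ddx4 (-0.34, adjusted p = 0.0362) and Dazl (-0.43, adjusted p = 0.0212) were lower. Of 9 germ cell genes in all, 4 were called higher and 3 lower, and their part in the ribosome biogenesis values was not tested. Correlations between libraries ranged from 0.987 to 0.999 across genes. In such bulk samples fewer cells of a type and less RNA per cell cannot be told apart.

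Ribosomes are made in the nucleolus. RNA polymerase I transcribes a long precursor from the ribosomal DNA repeats, small nucleolar ribonucleoproteins (snoRNPs) guide its chemical modification, and separate sets of assembly factors release the small and the large subunit. Growing and dividing cells need much of this machinery. Female germ cells of this age are leaving mitotic proliferation for meiosis.

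All 45 genes had a positive log2 fold change, taken as the withdrawn mean minus the supplied mean, from 0.04 for Polr1a to 0.55 for Tcof1. Among all 12432 genes tested, 46.6% were positive. The median was 0.21 over the 45 genes and -0.01 over all genes. By limma, with Benjamini-Hochberg adjustment over all 12432 genes and a threshold of 0.05, 19 of the 45 were called higher in withdrawn embryos and 0 lower, and 28 had an unadjusted p under the same threshold. In the same fit 6.22% of all genes were called higher and 7.75% lower (773 and 964 genes). With each library centred on its median the split was 928 and 771 genes, and 21 of the 45 were called higher. The 19 fold changes were small, from 1.16-fold to 1.47-fold on the linear scale. All 6 withdrawn embryos lay above the supplied mean for each of the 19, which the call itself makes likely. The same held for 10 of the 26 genes not called. The diets did not overlap for 7 genes, namely Ncl, Npm1, Tcof1, Mybbp1a, Nob1, Pes1 and Gnl3, where 2.15% of all genes lay apart in that direction. In the opposite direction 0 of the 45 lay apart, against 2.34% of all genes. The embryos of title number 4 weighed heavily in these calls. Without those 4 of the 12 embryos limma called 0 of the 45 genes, although 44 remained positive (median 0.11) and 13 had an unadjusted p under the threshold. Among all genes 49 were then called. Without supplied replicate 5 limma called 13 of the 45, and Nop56, Rrp9, Nhp2, Nop10, Ltv1 and Ddx21 no longer passed (adjusted p from 0.0654 to 0.126). Of all genes 2.94% were called higher in that fit. Leaving out any other single embryo gave from 14 to 24 calls, with 4.07% to 8.32% of all genes called higher. With a random effect for embryos that share a title number and diet (estimated correlation 0.267) limma called 14, and Nop56, Rrp9, Nhp2, Nop10 and Ddx21 did not pass (adjusted p from 0.0585 to 0.0981). The share of all genes called higher was then 3.18%.

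**Figure D1:**
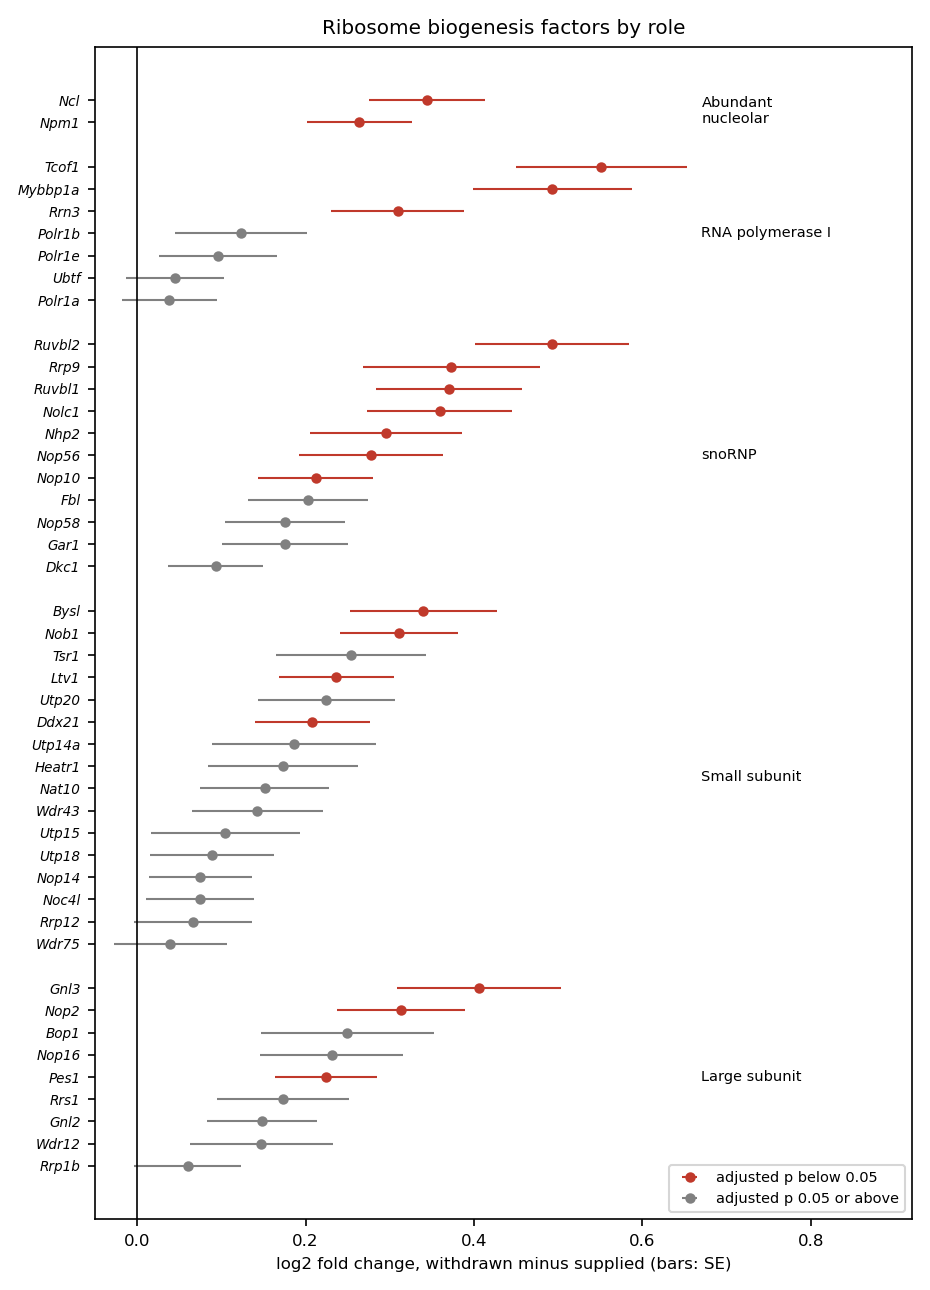
Log2 fold change of each of the 45 genes (x axis, withdrawn minus supplied, bars show the SE), grouped by role and ordered by size. All points lie to the right of 0, from 0.04 for Polr1a to 0.55 for Tcof1, and the 19 genes called at an adjusted p below 0.05 are in red.

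Promoter sequence was a feature that the choice of genes did not use. RefSeq promoter windows (build GRCm38.p6) of 300 bases, with 250 before and 50 after the start site, were found for 38 of the 45 genes. These genes had 46 windows in all, and a match in any window of a gene counted. The hexamer CACGTG, the core E-box that dimers of Myc and Max can bind, is its own reverse complement, so a search covers both strands. It occurred in the windows of 9 of the 38 genes (23.7%), against 12.2% of 8849 tested genes with a window and 8.09% of all 27025 genes with one. Of the 135 further ribosome biogenesis genes described below, 107 had a window and 16 of these (15%) held it. Of the genes called higher it was in 5 of 17, and of those not called in 4 of 21. The windows of the 5 called genes are shown because they let these matches be compared, with each CACGTG in capitals and all sequences 5′ to 3′ on the strand of the gene.
Mybbp1a (chr11:72441077-72441376, plus strand): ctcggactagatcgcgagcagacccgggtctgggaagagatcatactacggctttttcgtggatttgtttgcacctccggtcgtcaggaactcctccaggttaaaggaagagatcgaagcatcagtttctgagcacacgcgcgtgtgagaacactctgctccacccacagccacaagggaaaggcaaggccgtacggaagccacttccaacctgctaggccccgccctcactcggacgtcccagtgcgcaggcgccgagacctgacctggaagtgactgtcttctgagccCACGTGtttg
Rrn3 (chr16:13780449-13780748, plus strand): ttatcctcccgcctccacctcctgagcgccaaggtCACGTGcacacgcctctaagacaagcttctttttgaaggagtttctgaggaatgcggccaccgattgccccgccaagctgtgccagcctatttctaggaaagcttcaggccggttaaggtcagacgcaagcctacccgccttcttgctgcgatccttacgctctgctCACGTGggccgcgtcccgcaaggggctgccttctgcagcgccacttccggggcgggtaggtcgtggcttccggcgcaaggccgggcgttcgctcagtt
Nop2 (chr6:125131633-125131932, plus strand): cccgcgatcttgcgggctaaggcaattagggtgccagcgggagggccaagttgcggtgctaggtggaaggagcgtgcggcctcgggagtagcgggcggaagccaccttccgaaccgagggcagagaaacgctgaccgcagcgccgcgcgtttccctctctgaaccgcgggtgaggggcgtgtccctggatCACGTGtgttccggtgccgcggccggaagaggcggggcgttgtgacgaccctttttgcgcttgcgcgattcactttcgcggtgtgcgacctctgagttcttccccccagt
Pes1 (chr11:3963725-3964024, plus strand): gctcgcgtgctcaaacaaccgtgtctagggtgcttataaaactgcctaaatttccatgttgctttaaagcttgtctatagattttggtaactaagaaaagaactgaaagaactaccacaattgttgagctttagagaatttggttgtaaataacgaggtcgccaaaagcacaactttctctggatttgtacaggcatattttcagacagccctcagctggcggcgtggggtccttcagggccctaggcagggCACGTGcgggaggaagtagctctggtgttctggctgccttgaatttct
Ltv1 (chr10:13193088-13193387, minus strand): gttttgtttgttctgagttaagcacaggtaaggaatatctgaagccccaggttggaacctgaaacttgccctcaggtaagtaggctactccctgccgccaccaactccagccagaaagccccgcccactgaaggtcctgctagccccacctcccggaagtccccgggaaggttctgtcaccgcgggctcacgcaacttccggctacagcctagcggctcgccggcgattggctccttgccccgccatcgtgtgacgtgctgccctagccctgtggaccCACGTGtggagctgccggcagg
The match stood at different places. In Mybbp1a, Ltv1 and Pes1 it began at base 291, 279 and 253 of the window, downstream of the start site. In Nop2 it began at base 191, and Rrn3 held a pair at bases 36 and 203, all upstream. Matches in Tsr1, Utp18, Utp20 and Wdr43 belonged to genes that were not called.

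Other short motifs were searched on both strands of the same windows. The ETS core CCGGAAG was present in 10 of 38 genes (26.3%), against 20.3% of tested genes with a window. GCATGCG, part of the NRF1 motif, was found in 3 (7.89%, against 7.79%), and ATGGCGG, part of the YY1 motif, in 6 (15.8%, against 9.70%). Of the 107 further pathway genes with a window, 47 (43.9%) held CCGGAAG, a larger share than among the 38 genes. GCATGCG was in 13.1% of these 107 and ATGGCGG in 11.2%. GCATGCG overlaps itself on the opposite strand, so a single site can match on both. Median GC content was 57.7% in these windows and 61.3% in those of the tested genes. The matches describe sequence only and show no binding.

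Ncl and Npm1 encode nucleolin and nucleophosmin, abundant nucleolar proteins that chaperone histones and assembling ribosomal particles, and both rose in withdrawn embryos. Ncl lay at 15.49, 15.60 and 15.79 (lowest, median and highest log2 expression of 6) in withdrawn embryos, against 15.03, 15.26 and 15.46 in supplied embryos. Every withdrawn embryo exceeded every supplied embryo, and the difference was 0.34 (SE 0.07, adjusted p = 0.00428 by limma). Npm1 lay at 14.12, 14.25 and 14.40 in withdrawn embryos, against 13.77, 14.03 and 14.06 in supplied embryos. These diets did not overlap either, and its change was 0.26 (SE 0.06, adjusted p = 0.00920). Supplied replicate 5 was the lowest of the 12 embryos for both.

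Of 7 genes acting with RNA polymerase I, 3 rose and 4 did not pass. Tcof1 encodes treacle, which assists polymerase I transcription and is mutated in human Treacher Collins syndrome. It had the largest change of all 45 genes. Its values were 10.91, 10.98 and 11.28 in withdrawn embryos, against 10.15, 10.46 and 10.86 in supplied embryos. The diets were apart by a small margin, and the difference was 0.55 (SE 0.10, adjusted p = 0.00301). Mybbp1a, a nucleolar protein that binds Myb and takes part in ribosomal RNA synthesis and processing, lay at 12.87, 13.002 and 13.16 in withdrawn embryos, against 12.11, 12.55 and 12.86 in supplied embryos. Only a narrow gap separated the lowest withdrawn from the highest supplied embryo, and the change was 0.49 (SE 0.09, adjusted p = 0.00310). Rrn3, the factor that recruits polymerase I to its initiation complex, was at 11.72, 11.84 and 11.93 in withdrawn embryos and at 11.22, 11.53 and 11.75 in supplied embryos. The ranges overlapped slightly, with a change of 0.31 (SE 0.08, adjusted p = 0.0141).

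The other 4 genes of this role did not pass. Polr1a, the largest catalytic subunit, was at 11.32, 11.37 and 11.46 in withdrawn embryos, against 11.31, 11.34 and 11.39 in supplied embryos. The ranges overlapped almost wholly (0.04, SE 0.06, adjusted p = 0.692). Ubtf, which binds along the ribosomal DNA, had a log2 fold change of 0.04 (adjusted p = 0.641). The second catalytic subunit Polr1b was at 0.12 (adjusted p = 0.300) and the smaller subunit Polr1e at 0.10 (adjusted p = 0.376). With quantile normalization Ubtf turned to a small negative value of -0.01.

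**Figure D2:**
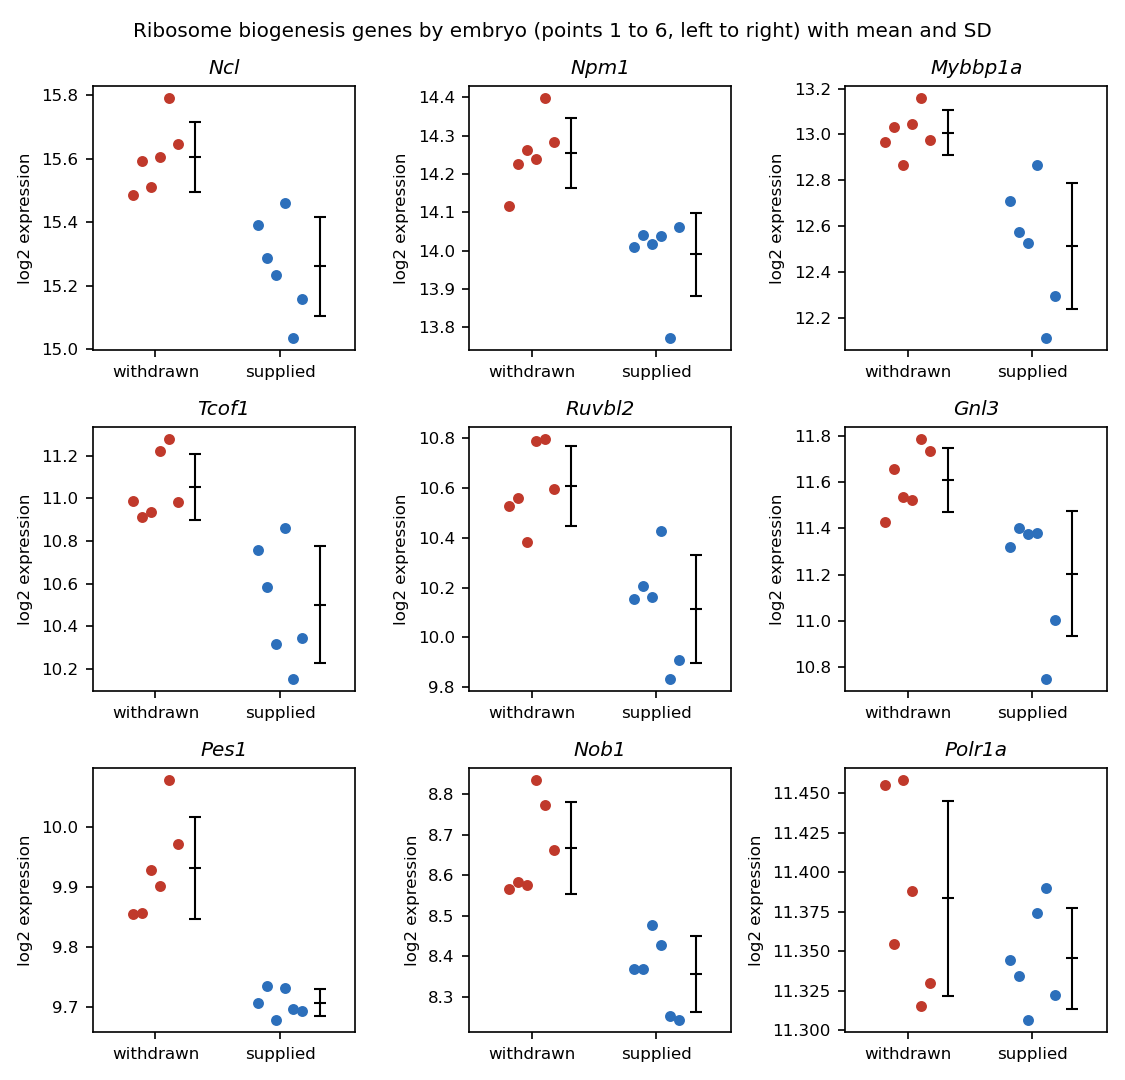
Normalized log2 expression (y axis, a separate scale for each gene) of 9 genes in each embryo, with withdrawn embryos in red and supplied embryos in blue, replicates 1 to 6 from left to right in each group, and bars for mean and SD. The diets do not overlap for Ncl, Npm1, Mybbp1a, Tcof1, Gnl3, Pes1 and Nob1, and overlap for Ruvbl2 and Polr1a.

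Of 11 snoRNP genes, 7 were called higher, and the diets overlapped for all 11. Without supplied replicate 5, and also with the random effect, 3 of the 11 were called, where 2.94% and 3.18% of all genes were called higher. The exact permutation test called 0 of the 11. It passed only genes whose diets did not overlap, so this adds nothing to the overlap. Ruvbl1 and Ruvbl2 encode partner ATPases that help assemble snoRNPs and also belong to chromatin remodelling complexes. Ruvbl2 lay at 10.38, 10.58 and 10.80 in withdrawn embryos, against 9.83, 10.16 and 10.43 in supplied embryos. Only supplied replicate 4 reached into the withdrawn range, and the change was 0.49 (SE 0.09, adjusted p = 0.00301). Ruvbl1 was at 10.73, 10.90 and 11.32 in withdrawn embryos and at 10.31, 10.58 and 10.76 in supplied embryos. Its change was 0.37 (SE 0.09, adjusted p = 0.00901), with withdrawn replicate 5 well above the rest.

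Among the box C/D proteins, which carry out ribose methylation, the core protein Nop56 rose by 0.28 (adjusted p = 0.0336), with 11.57, 11.67 and 11.96 in withdrawn embryos against 11.10, 11.52 and 11.60 in supplied embryos. Its partner Nop58 was at 0.18 (adjusted p = 0.0997) and the methyltransferase fibrillarin, Fbl, at 0.20 (adjusted p = 0.0589), and neither passed. Rrp9, a protein of the snoRNP that organizes the small subunit precursor, rose by 0.37 (SE 0.10, adjusted p = 0.0220). Of the box H/ACA proteins, which carry out pseudouridylation, Nhp2 (0.30, adjusted p = 0.0322) and Nop10 (0.21, adjusted p = 0.0408) rose. The pseudouridine synthase dyskerin, Dkc1, was at 0.09 (adjusted p = 0.278) and Gar1 at 0.18 (adjusted p = 0.116). Nolc1, a chaperone of both classes, rose by 0.36 (SE 0.09, adjusted p = 0.0102), with 12.53, 12.75 and 12.90 in withdrawn embryos against 12.07, 12.38 and 12.67 in supplied embryos.

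Of 16 small subunit factors, 4 rose and 12 did not pass. Nob1, the nuclease that makes the last cut of the small subunit RNA, was at 8.57, 8.62 and 8.84 in withdrawn embryos, against 8.24, 8.37 and 8.48 in supplied embryos. The diets did not overlap (0.31, SE 0.07, adjusted p = 0.00774). Bysl, an assembly factor known to bind late precursors, rose by 0.34 (SE 0.09, adjusted p = 0.0146), with 9.68, 9.76 and 10.14 in withdrawn embryos against 9.31, 9.44 and 9.79 in supplied embryos. Ltv1, which acts during late maturation and export, rose by 0.24 (SE 0.07, adjusted p = 0.0246), and the helicase Ddx21, which acts in both transcription and processing, by 0.21 (SE 0.07, adjusted p = 0.0444).

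The small subunit processome proteins Utp20, Utp14a, Heatr1, Wdr43, Utp15, Utp18, Nop14, Noc4l and Wdr75 did not pass. In the wider list described below, the processome proteins Utp6 and Mphosph10 were called higher. Among the processome proteins just named that did not pass, Utp20 (0.22, adjusted p = 0.0676) and Utp14a (0.19, adjusted p = 0.203) had the largest values. Heatr1 (0.17), Wdr43 (0.14), Utp15 (0.10), Utp18 (0.09), Nop14 (0.07), Noc4l (0.07) and Wdr75 (0.04) were smaller still. Tsr1, an assembly factor of the late precursor, had 0.25 but ranged widely in supplied embryos, and its adjusted p was 0.0579. The RNA acetyltransferase Nat10 was at 0.15 and the export factor Rrp12 at 0.07. Wdr75 turned to -0.01 with quantile normalization, and Utp14a to -0.03 without title number 4.

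Among 9 large subunit factors, 3 rose. Gnl3, a nucleolar GTPase also called nucleostemin and known from stem cells, was at 11.43, 11.59 and 11.79 in withdrawn embryos, against 10.75, 11.35 and 11.40 in supplied embryos. The lowest withdrawn value only just exceeded the highest supplied value, and the change was 0.41 (SE 0.10, adjusted p = 0.0106). Nop2, a methyltransferase of the large subunit RNA, lay at 9.73, 9.96 and 10.07 in withdrawn embryos and at 9.39, 9.68 and 9.74 in supplied embryos, with a change of 0.31 (SE 0.08, adjusted p = 0.0110). Pes1, Bop1 and Wdr12 form the PeBoW complex, which large subunit maturation needs. Pes1 was at 9.85, 9.91 and 10.08 in withdrawn embryos, against 9.68, 9.70 and 9.74 in supplied embryos. Among supplied embryos it had the smallest SD of the 45 genes, 0.02, and rose by 0.22 (SE 0.06, adjusted p = 0.0181). Its partners had values of 0.25 for Bop1 (adjusted p = 0.103) and 0.15 for Wdr12 (adjusted p = 0.249). The other assembly factors were Nop16 at 0.23, Rrs1 at 0.17, the GTPase Gnl2 at 0.15 and Rrp1b at 0.06, and none of these passed.

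**Figure D3:**
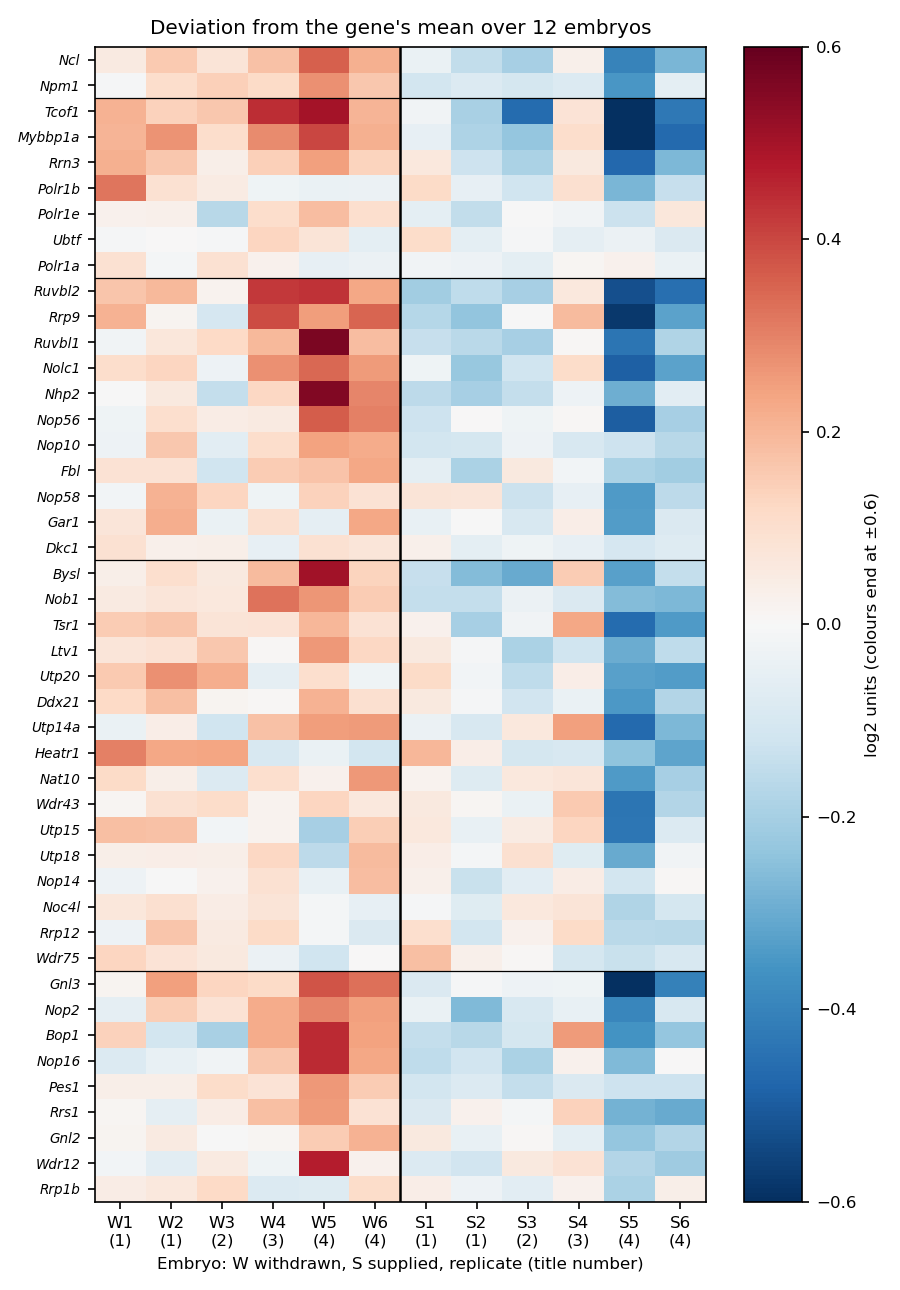
Deviation of each gene from its mean over the 12 embryos (colour, log2 units, ending at 0.6 in each direction), with genes in rows by role and embryos in columns, withdrawn (W) left of supplied (S), title number in brackets. Supplied replicate 5 is the lowest embryo for 32 of the 45 genes, and withdrawn replicate 5 the highest for 23.

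Variation among embryos of the same diet was partly shared by these genes. After the mean of each diet was removed, the median correlation over the 990 pairs of these genes was 0.448 across the 12 embryos, and 86.7% of pairs were positive. Over pairs of the 135 further ribosome biogenesis genes described below, the median was 0.197 and 67.3% were positive. Over all 77271096 pairs of tested genes the median was 0. Points share libraries and normalization, so this is a description without a test. Mybbp1a (0.96), Nolc1 (0.96), Ncl (0.95) and Utp14a (0.93) followed the mean of the other 44 most closely, and Polr1a ran against it (-0.45). Taken within each diet of 6 embryos, 11 of the 45 genes ran against the mean of the others in withdrawn embryos and 1, Polr1a, in supplied embryos. Heatr1 was at -0.77 within withdrawn and 0.62 within supplied embryos, and Utp15 at -0.55 within withdrawn and 0.96 within supplied embryos. Over all 12 embryos, the median correlation with the mean of the other 44 was 0.81 for the called genes and 0.55 for those not called.

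The mean over the 45 genes was 10.93 ± 0.06 in withdrawn and 10.71 ± 0.13 in supplied embryos (SD, n = 6 each), from 10.86 to 11.02 in withdrawn and from 10.50 to 10.85 in supplied embryos. Withdrawn replicate 5 had the highest mean and supplied replicate 5 the lowest, and both carry title number 4. Within title number 4 the median difference between the diets was 0.41, with 44 of 45 genes positive. It was 0.15 within title number 1, also with 44 positive. With 1 embryo of each diet, it was 0.10 within title number 2 (31 positive) and 0.07 within title number 3 (34 positive). Over all genes the median difference was -0.01 within title numbers 2 and 4 and nearer 0 within 1 and 3. Without title number 1, limma called 12 of the 45 genes, and 2.61% of all genes were called higher.

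The same embryos were ordered almost in reverse by genes of meiotic entry. The mean of 8 such genes was from 8.37 to 9.19 in withdrawn and from 8.95 to 10.36 in supplied embryos, and 7 of the 8 were called lower. Among supplied embryos, the order from highest to lowest ribosome biogenesis mean (replicates 4, 1, 3, 2, 6 and 5) was exactly the order from lowest to highest meiotic mean. Stra8, the retinoic acid target that opens meiosis, was 8.66 in supplied replicate 4 and 11.66 in supplied replicate 5. Among withdrawn embryos the orders were the same except that replicates 4 and 6 changed places. Withdrawn replicate 5 had the lowest Stra8, at 7.53, and withdrawn replicate 3 the highest, at 9.66. The part of meiotic stage in the ribosome biogenesis values was not tested.

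**Figure D4:**
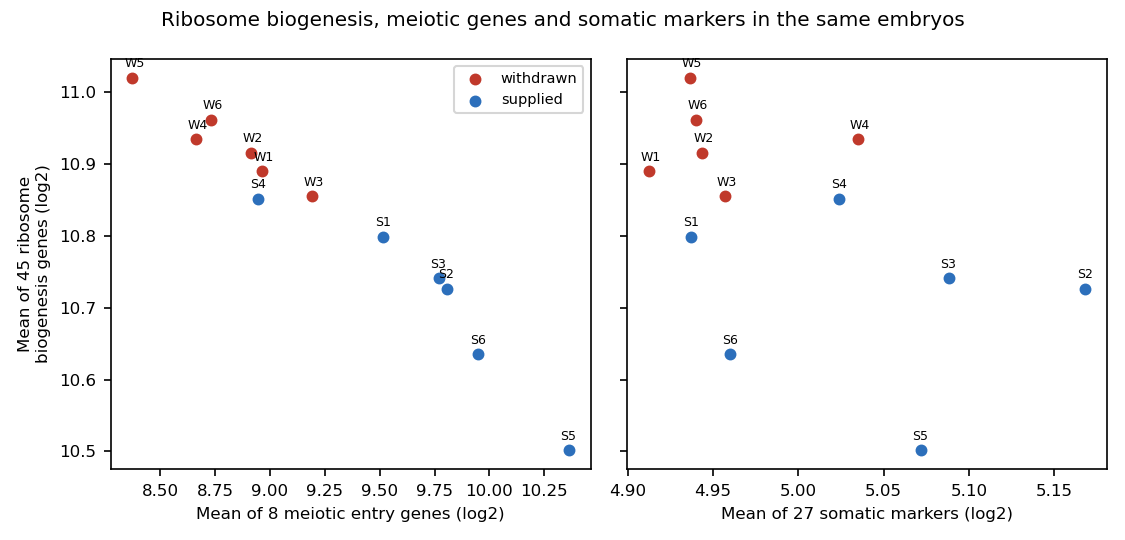
Mean log2 expression of the 45 ribosome biogenesis genes in each embryo (y axis) against the mean of 8 meiotic entry genes (left) and of 27 somatic markers (right), withdrawn in red and supplied in blue. Withdrawn embryos lie between 10.86 and 11.02 and supplied embryos between 10.50 and 10.85, and within the supplied embryos a lower meiotic mean always goes with a higher ribosome biogenesis mean.

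Most markers of somatic cells had negative values. Of 27 such markers in the table, 26 were tested, 23 were negative and 2 were called lower, namely Kitl (-0.32) and Emx2 (-0.18). Of all genes 7.75% were called lower. By limma, 10 of the 26 had an unadjusted p under 0.05. Their mean per embryo was from 4.91 to 5.04 in withdrawn and from 4.94 to 5.17 in supplied embryos. Their sum on the linear scale was from 1028 to 1144 in withdrawn and from 1051 to 1279 in supplied embryos. The erythroid markers and Tcf21, Dcn, Emcn, Aif1 and Pax2 were not analysed here. With the somatic mean as a covariate, limma called 1 of the 45 genes, Ruvbl2 (0.54, adjusted p = 0.0382), and all 45 were positive with a median of 0.20. Calls over all tested genes fell to 59 in that fit, from 1737 without the covariate, and 0.153% of all genes were called higher. The median SE was 0.10 with the covariate and 0.08 without it.

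A wider list of 135 further ribosome biogenesis genes was written from general knowledge of the pathway, with earlier results of these data known. Of these, 31 were called higher (23.0%) and 0 lower, 116 were positive, and their median was 0.14. In all 6.22% of tested genes were called higher. The smallest p values belonged to the helicase Ddx54 (0.39, SE 0.07, adjusted p = 0.00304), Utp6 (0.43, SE 0.09, adjusted p = 0.00482), Mphosph10 (0.31, SE 0.07, adjusted p = 0.00505), Dnttip2 (0.29, SE 0.07, adjusted p = 0.00786) and Pno1 (0.36, SE 0.09, adjusted p = 0.00993). Mphosph10 and Utp6 are processome proteins, and Pno1 is a partner of Nob1. By role, 12 of 42 small subunit factors, 11 of 51 large subunit factors, 6 of 21 genes of the RNA exosome and the RNase MRP and P proteins, and 2 of 8 snoRNP assembly factors were higher. None of 11 further genes of polymerase I and its factors was called by limma, and 1 had an unadjusted p under the threshold. Their median was 0.04. The 31 calls numbered 14 without supplied replicate 5, 20 without withdrawn replicate 5 or 6, 15 without title number 1 and 0 without title number 4. In the same order, the share of all genes called higher was 2.94%, 4.56% or 4.31%, 2.61% and 0.0724%.

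**Figure D5:**
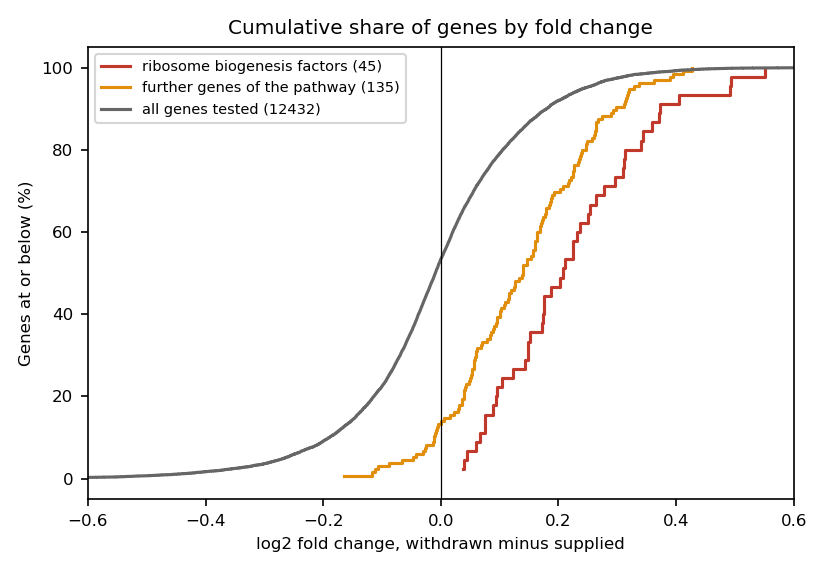
Cumulative share of genes (y axis, percent) at or below a log2 fold change (x axis, withdrawn minus supplied), for the 45 ribosome biogenesis genes, the 135 further genes of the pathway and all 12432 genes tested. The medians are 0.21, 0.14 and -0.01, and the x axis ends at 0.6 in each direction, beyond which some of all genes lie.

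Products and regulators of the pathway gave smaller counts. Of 79 cytosolic ribosomal protein genes chosen by symbol, 7 were called higher (8.86%) and 0 lower, 76 were positive, and the median was 0.13. Their reads may be divided among near-identical copies. Rps25 (0.38, adjusted p = 0.00640) and Rplp0 (0.42, adjusted p = 0.0133) had the smallest p values. Myc was not analysed here. Its relative Mycn was at 0.18 (adjusted p = 0.109) and their partner Max at 0.10 (adjusted p = 0.419). Mxd4, which pairs with Max and represses transcription, was the 1 called gene of 9 in this family and fell by 0.55 (SE 0.14, adjusted p = 0.0159). Of 16 proliferation genes, all 16 were positive and 3 rose, namely Aurka (0.27), Ccnb1 (0.25) and Ccna2 (0.24). Their mean was 11.60 ± 0.04 in withdrawn and 11.46 ± 0.09 in supplied embryos (SD, n = 6 each), lowest in supplied replicate 5, and the part of proliferation in the ribosome biogenesis values was not tested.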

How the data were processed

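RNA from sorted germ cells of 12 embryos, 6 withdrawn and 6 supplied, was sequenced. The authors deposited normalized log2 expression per gene and embryo. The submitters' processing notes name DESeq2 1.10.1, TopHat2 2.0.13, Trim Galore 0.4.0 and FastQC, and the build mm9, with no role or order. Neither the annotation, the read counter, the gene filter nor the form of the log2 transformation is stated in these sources, so depth is unknown, no count test was run, and fold changes of weakly expressed genes may be understated.

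Genes with a mean of at least log2 of 10 (3.32) were kept, which left 12432. The diets were compared with limma 3.58.1 in R 4.3.3 (variance trend, two-sided test), and p values were adjusted by Benjamini-Hochberg over the 12432 genes. The fit was tested on simulated data with independent noise for each gene and embryo. That test therefore did not cover variation shared between embryos or between genes. Genes, lists and tests were chosen with earlier results of these data known. All listed genes are named, as are the 5 smallest p values of the wider list. Up to 4 genes of each other list are named, and more of the germ cell list. The ribosomal protein list was added after seeing the data. Meioc and Nop9 were matched through RefSeq synonyms. Promoters come from RefSeq on GRCm38.p6, not mm9, and gave no coordinates to the expression values. Embryos are taken as independent, and p values set the difference between diets against the spread among embryos of a diet. They are too small if embryos that share a number share a mother.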

Additional observations from a re-analysis of the deposited data

Results flagged for a closer look

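In a group of 6 embryos, a single value was set apart where its gap to the nearest value exceeded Dixon's critical share of the range. Of 94 groups examined, 7 met this, where chance gives about 1 in 20. In withdrawn embryos, replicate 5 was high for Ruvbl1 (11.32), Bysl (10.14) and Wdr12 (9.84), with the nearest embryos at 10.95, 9.83 and 9.43, and replicate 1 was high for Polr1b (10.56, nearest 10.33). In supplied embryos, replicate 5 was low for Gar1 (8.87), Utp15 (8.49) and Npm1 (13.77), with the nearest embryos at 9.11, 8.84 and 14.01. Without supplied replicate 5, Npm1 was at 0.22 (adjusted p = 0.0284 by limma).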

How the results depend on the processing

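Filters, an offset, median centring, quantile normalization, dropping the variance trend, array weights, a random effect and leaving out title number 2 or 3 kept the count of 19 called genes within 1.5 times. The numbers that moved further have causes that were not tested. With embryos of a title number and diet averaged, 5 of the 45 genes, 3 further pathway genes and 298 genes in all were called. With the somatic covariate these numbers were 1, 1 and 59, and by the exact permutation test (smallest p 0.00216) 7, 6 and 558. The exact test passed only genes whose diets did not overlap, so its counts repeat that feature and are no separate check. Without title number 1 they were 12, 15 and 729, and without title number 4 they were 0, 0 and 49. With the random effect 14 of the 45 genes, 17 further pathway genes and 886 genes in all were called. Array weights called 1 further pathway gene lower. Leaving out 1 embryo at a time gave 13 to 24 of the 45 genes, 14 to 42 further pathway genes and 808 to 2315 in all. Signs turned for Ubtf (-0.00988) and Wdr75 (-0.00644) with quantile normalization and for Utp14a (-0.0300) without title number 4. With title number as a replicate block, 23 of the 45 genes, 36 further pathway genes and 2062 in all were called. The numbers were not taken to pair the diets. Deviations of same-numbered embryos correlated between -0.17 and 0.27 across the diets, and between -0.16 and 0.28 within a diet. Within a diet, title number 1 was at 0.21 in both diets, and number 4 at 0.28 in supplied and -0.16 in withdrawn embryos. Removing the mean of each diet pulls correlations within a diet below 0, but not those across diets. Across the diets, embryos sharing a number were also averaged first. The 2 ranges therefore cannot be compared directly and cannot decide whether the numbers pair the diets. Over 28 alternatives, Tcof1, Mybbp1a and Ruvbl2 were called in 26 each, all but the fit without title number 4 and the somatic covariate (Tcof1, Mybbp1a) or the exact test (Ruvbl2).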
